A study of Mus with 17 samples.

Results

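Transcripts of genes that mark the inner lining of blood vessels were followed in mouse abdominal aorta: Cdh5 (ENSMUST00000034339), Kdr (ENSMUST00000113516), Tie1 (ENSMUST00000047421), Tek (ENSMUST00000102798) and Nos3 (ENSMUST00000030834). They were chosen by their Ensembl transcript identifiers, from a list of 6. The identifier for Pecam1 (ENSMUST00000068021) was not listed for any sample and could not be analysed. This left 5 of the 39614 transcripts listed for all samples, and all 5 passed the filter on low values. The pairing of these identifiers with gene symbols came with the list. The files themselves pair no identifier with a gene name, so the markers of smooth muscle and other vessel cells were not used here to check the tissue. Each identifier stands for 1 transcript and not for the sum over its gene. RefSeq on assembly GRCm38.p6 holds 1 curated transcript each for Cdh5, Nos3 and Tie1, 2 for Kdr and 3 for Tek.

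Endothelial cells form a single layer between the blood and the muscular wall of the aorta. Cdh5 encodes VE-cadherin, the adhesion protein of their junctions, Kdr encodes VEGF receptor 2, and Tek and Tie1 encode the angiopoietin receptor Tie2 and its relative, a pair of receptor tyrosine kinases. Nos3 encodes endothelial nitric oxide synthase, which makes the gas that relaxes the underlying smooth muscle, and loss of this relaxation is a known feature of vessels under raised angiotensin II.

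All animals were wild-type C57BL/6 mice treated for 42 days. Control mice received saline and double distilled water (n = 5), AngII mice received angiotensin II at 500 ng/kg/min and double distilled water (n = 6), and the third group received the same angiotensin II with neferine, an alkaloid of lotus seed embryos, at 1 mg/kg per day (n = 6). The labels give neither the age of the mice nor the number of mice behind a sample, and a p-value here reflects only how far these samples spread, which may be technical. The study asked how neferine acts on vessels exposed to angiotensin II.

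The values are a linear abundance signal per transcript whose unit the files do not name. The signals of different transcripts are therefore not ranked against each other. Sums and differences of them are given only to compare libraries. The summed signal of a library over the 39614 transcripts lay between 388538 and 567508, and the number of reads behind it is unknown. AngII replicate 6 resembled the others least. Its rank correlation with them across transcripts (Spearman rho) had a median of 0.455, and 16.4% of its transcripts were listed at 0, while the others had rho from 0.606 to 0.680 and 4.39% to 10.1% at 0. In AngII replicate 2 and neferine replicate 1 the 10 most abundant transcripts held 31.0% and 29.0% of the signal, against 10.6% to 21.8% elsewhere. The neferine libraries come from a separate set of files, so neferine and the set of files cannot be told apart in any comparison with them.

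The endothelial identity transcripts and Nos3 were detected in every group, and no difference between groups beyond the spread of the libraries was detected for any of them. Tie1 varied little, while Cdh5 ran from 7.92 to 34.2, its highest signal 4.32 times the lowest. Kdr and Tek each had 1 AngII library far above the rest. Nos3 ranged from 0 to 9.58 with high and low libraries in all 3 groups. In tissue RNA, fewer endothelial cells and less RNA per cell cannot be told apart.

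**Figure D1:**
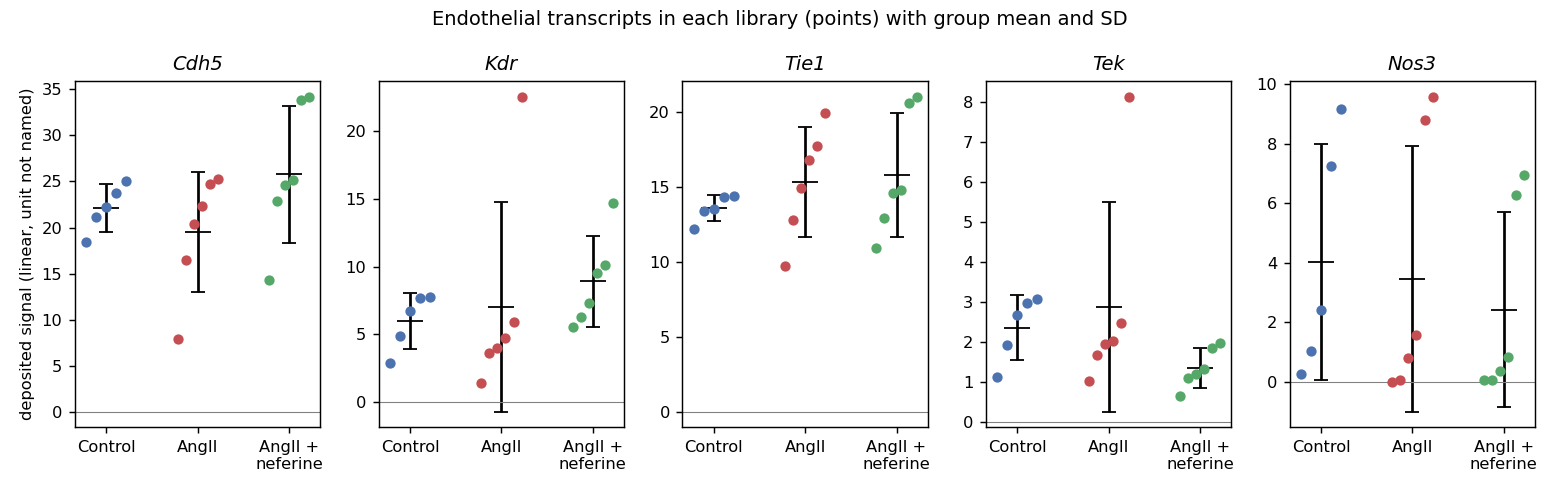
Deposited signal (vertical axis, linear scale, unit not named in the files) of each endothelial transcript in the 17 libraries, by group on the horizontal axis. Points are libraries, sorted by value within a group, and black bars are the group mean and SD. The groups overlap in every panel, Kdr reaches 22.5 and Tek 8.14 in a single AngII library, and Nos3 leaves the range from 3 to 6 empty in all groups.

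Cdh5, the junction adhesion protein, had signals of 18.4, 21.1, 22.2, 25.1 and 23.8 in the Control libraries. In AngII they ran from 7.92 to 25.3 with a median of 21.3, and with neferine from 14.3 to 34.2 with a median of 24.9. The neferine libraries 1 and 6 held the 2 highest Cdh5 signals, 34.2 and 33.8, and AngII replicate 2 held the lowest, yet the ranges overlapped throughout. The Control mean was 22.1 ± 2.59 (SD, n = 5). The AngII mean was 19.5 ± 6.53 (SD, n = 6), and the mean with neferine was 25.8 ± 7.44 (SD, n = 6).

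Tie1, the Tie2 relative, was the steadiest member. Its Control signals were 13.4, 13.5, 14.4, 14.3 and 12.2. In AngII it lay between 9.73 and 19.9 with a median of 15.8, and with neferine between 10.9 and 21.0 with a median of 14.7. The Control libraries sat inside the ranges of the other groups, and the highest Tie1 signal of all libraries was 2.16 times the lowest. The means of Control, AngII and neferine were 13.6 ± 0.872 (SD, n = 5), 15.3 ± 3.66 (SD, n = 6) and 15.8 ± 4.12 (SD, n = 6).

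Kdr, the VEGF receptor, had Control signals of 2.87, 7.71, 4.91, 7.76 and 6.70. The AngII signals ran from 1.39 to 22.5 with a median of 4.39. With neferine they ran from 5.58 to 14.7 with a median of 8.42. The AngII extremes were replicate 6 at 1.39 and replicate 2 at 22.5, the lowest and the highest Kdr signals of the series, and the next highest was neferine replicate 1 at 14.7. The 2 libraries with the most Kdr were thus the 2 with the largest share of signal in the 10 most abundant transcripts, and the part of that skew in the Kdr values was not tested. The Control mean was 5.99 ± 2.09 (SD, n = 5), the AngII mean 7.03 ± 7.72 (SD, n = 6) and the mean with neferine 8.91 ± 3.33 (SD, n = 6).

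Tek, the angiopoietin receptor, had Control signals of 1.94, 1.13, 2.97, 2.68 and 3.07. In AngII it lay between 1.02 and 8.14 with a median of 2.0, and with neferine between 0.658 and 1.99 with a median of 1.26. The 8.14 belonged to AngII replicate 6, the library least like the others, and the next highest AngII signal was 2.47. The Control mean was 2.36 ± 0.816 (SD, n = 5), the AngII mean 2.88 ± 2.62 (SD, n = 6) and the mean with neferine 1.36 ± 0.498 (SD, n = 6). The ranges overlapped.

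Nos3, the nitric oxide synthase, behaved unlike the other members in its spread. The Control signals were 2.41, 1.04, 9.16, 7.25 and 0.267 in replicates 1, 2, 4, 5 and 6. The AngII signals were 1.59, 9.58, 0.819, 0.0476 and 8.79 in replicates 1 to 5, and replicate 6 was listed at 0. With neferine they were 0.0730, 0.373, 6.96, 0.828, 0.0533 and 6.29 in replicates 1 to 6. Each group thus held 2 libraries with a signal of at least 6, no library lay between 3 and 6, and the other 11 lay under 3. Signals under 1 were found in 1 of 5 Control libraries, 3 of 6 AngII libraries and 4 of 6 neferine libraries. The ranges were set at gaps seen in the values, and these counts were not tested. An exact 0 can be a failed estimate and is given as listed. The Control mean was 4.03 ± 3.95 (SD, n = 5), the AngII mean 3.47 ± 4.47 (SD, n = 6) and the mean with neferine 2.43 ± 3.27 (SD, n = 6). The SD was about as large as the mean in Control and larger in the other groups.

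AngII was compared with Control to ask whether the endothelial transcripts differed after angiotensin II infusion. Log2 fold changes are differences of mean log2(signal + 1), which understates the change of low signals. Cdh5 differed by -0.25 ± 0.268 (SE; limma, adjusted p = 0.841), Kdr by -0.13 ± 0.437 (SE; adjusted p = 0.957) and Tie1 by 0.13 ± 0.198 (SE; adjusted p = 0.889). Tek differed by 0.05 ± 0.323 (SE; limma, adjusted p = 0.979) and Nos3 by -0.41 ± 0.788 (SE; adjusted p = 0.915). None of the 5 passed at an adjusted p under 0.05, where limma called 0 of all 29983 transcripts tested (0%), and none had an unadjusted p under 0.05, against 7.25% of all transcripts. The groups overlapped in all 5, while they did not in 0.807% of all transcripts. The median of the 5 log2 fold changes was -0.13, beside -0.026 over all transcripts. Two-sided exact permutation tests over the libraries gave unadjusted p from 0.450 for Tie1 to 0.957 for Tek.

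The intervals show which sizes of change these libraries could still hold. The 95% interval for AngII against Control ran from -0.29 to 0.55 for Tie1 and from -0.82 to 0.32 for Cdh5. For Nos3 it ran from -2.07 to 1.26, which covers large changes in either direction. The Nos3 value was -1.07 with a pseudocount of 0.1 in place of 1 (limma, adjusted p = 0.868) and ran from -0.80 to -0.05 when 1 library was left out. The direction in Tek was not stable: the log2 fold change was -0.23 without AngII replicate 6 (limma, adjusted p = 0.883) and -0.10 without Control replicate 2 (adjusted p = 0.966). For Kdr it was 0.14 without AngII replicate 6 (limma, adjusted p = 0.973) and -0.52 without AngII replicate 2 (adjusted p = 0.748).

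**Figure D2:**
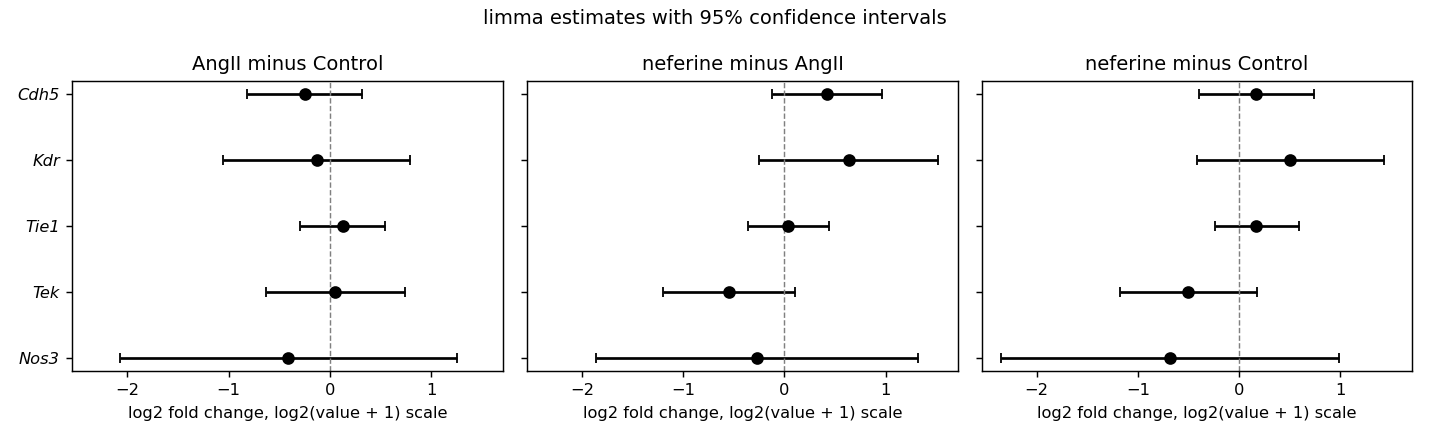
Log2 fold change on the log2(signal + 1) scale (horizontal axis) of the 5 endothelial transcripts in the 3 comparisons. Points are limma estimates over 17 libraries and bars their 95% confidence intervals. Every interval includes 0, and the Nos3 intervals are the widest in each panel.

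The neferine group was compared with the AngII group, a difference in which neferine and the set of files cannot be told apart. These values share the AngII libraries with those above. Kdr differed by 0.64 ± 0.417 (SE; limma, adjusted p = 0.952) and Cdh5 by 0.42 ± 0.256 (SE; adjusted p = 0.952), both higher with neferine. Tek differed by -0.55 ± 0.308 (SE; limma, adjusted p = 0.952), Nos3 by -0.27 ± 0.752 (SE; adjusted p = 0.986) and Tie1 by 0.04 ± 0.188 (SE; adjusted p = 0.994). None of the 5 passed, as none of the 29983 transcripts did (0%), and none had an unadjusted p under 0.05, against 5.22% of all. No member's groups were free of overlap, against 0.263% of all transcripts. The median log2 fold change was 0.04, beside -0.004 over all transcripts, and exact permutation p ran from 0.0909 for Tek to 0.825 for Tie1, unadjusted and two-sided.

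Single libraries set much of these differences. Without AngII replicate 2, Kdr differed by 1.02 ± 0.310 (SE) between neferine and AngII, at an unadjusted limma p of 0.00468 and an adjusted p of 0.546. Without AngII replicate 6 it differed by 0.37 (limma, adjusted p = 0.970). Cdh5 differed by 0.20 without AngII replicate 2 (limma, adjusted p = 0.867), and Tek by -0.27 without AngII replicate 6 (adjusted p = 0.950). With both of these libraries and neferine replicate 1 left out, Kdr differed by 0.64, Tek by -0.25 and Cdh5 by 0.02, with limma adjusted p of 0.631, 0.876 and 0.992. For Nos3 the 95% interval ran from -1.86 to 1.32.

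The neferine group was also set against saline. Nos3 differed by -0.68 ± 0.788 (SE; limma, adjusted p = 0.847), the widest estimate, with a 95% interval from -2.35 to 0.99. It was -1.39 with a pseudocount of 0.1 (limma, adjusted p = 0.834) and ran from -1.07 to -0.32 without 1 library. Tek differed by -0.50 ± 0.323 (SE; limma, adjusted p = 0.704) and Kdr by 0.50 ± 0.437 (SE; adjusted p = 0.791). Cdh5 and Tie1 each differed by 0.17, with SE of 0.268 and 0.198 (limma, adjusted p = 0.894 and 0.843). None of the 5 passed, against 11 of 29983 transcripts (0.0367%), none had an unadjusted p under 0.05, against 8.74% of all, and none had groups without overlap, against 2.08%. The median log2 fold change was 0.17, beside -0.028 over all transcripts. Exact permutation p ran from 0.0606 for Tek to 0.437 for Cdh5, unadjusted and two-sided.

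The order of the group means on the log2(signal + 1) scale differed between the members. Cdh5 and Kdr were lowest in AngII (4.27 and 2.61), followed by Control (4.52 and 2.74) and neferine (4.69 and 3.25). On the linear scale the AngII mean of Kdr, which includes replicate 2 at 22.5, stood above Control. Tie1 ran from 3.86 in Control over 3.99 in AngII to 4.04 with neferine, and Nos3 from 1.23 with neferine over 1.5 in AngII to 1.91 in Control. Tek was lowest with neferine, at 1.21, while its Control and AngII means of 1.71 and 1.76 change places without AngII replicate 6 or Control replicate 2. The orders of the other members were not firm either. AngII against Control was 0.14 for Kdr without AngII replicate 6. For Cdh5 it was 0.07 without AngII replicates 2 and 6 and neferine replicate 1. Neferine against AngII was -0.07 for Tie1 without AngII replicate 1 and 0.11 for Nos3 without AngII replicate 2. No pair of neighbours in these orders passed the limma test. The distance between the related receptors, log2(Tie1 + 1) minus log2(Tek + 1), had a Control mean of 2.15 ± 0.401 (SD, n = 5), an AngII mean of 2.23 ± 0.611 (SD, n = 6) and a mean with neferine of 2.83 ± 0.263 (SD, n = 6). Its ranges overlapped, from 1.70 to 2.76, from 1.19 to 2.77 and from 2.50 to 3.24, and it was not tested. Summed over the 5 transcripts, the Control signal was 48.1 ± 7.27 (SD, n = 5), the AngII signal 48.2 ± 8.04 (SD, n = 6) and the signal with neferine 54.4 ± 11.1 (SD, n = 6).

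The spread between libraries of a group separated Nos3 from the identity transcripts. On the log2(signal + 1) scale the SD within groups was 1.4 for Nos3, and 94.0% of the 29983 transcripts had a lower one. It was 0.752 for Kdr, 0.527 for Tek, 0.448 for Cdh5 and 0.299 for Tie1, around a median of 0.599 over all transcripts, and 11.6% of transcripts had a lower SD than Tie1. The groups accounted for 4.44% of the Nos3 variance and 6.61% of that of Tie1, below the median of 11.5% over all transcripts. Kdr, Cdh5 and Tek were above it, at 14.4%, 16% and 22%. Of all transcripts, 59.0%, 63.5% and 76.6% had a lower share than these, in that order. The shares of variance were not tested. The SD within groups depends on the level and length of a transcript as well, which were not matched.

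**Figure D3:**
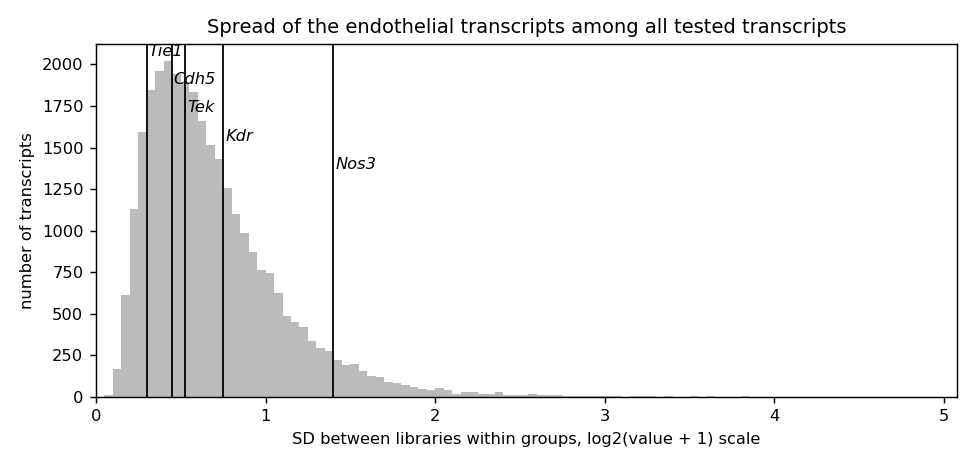
Histogram of the SD between libraries within groups, on the log2(signal + 1) scale (horizontal axis), over all 29983 tested transcripts, with their number on the vertical axis. Vertical lines mark the endothelial transcripts, from Tie1 at 0.299 to Nos3 at 1.4 in the right tail.

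Nos3 was also set against the other endothelial transcripts of the same library, as log2(Nos3 + 1) minus the mean log2(signal + 1) of Cdh5, Kdr, Tek and Tie1. The Control value was -1.30 ± 1.26 (SD, n = 5), the AngII value -1.66 ± 1.45 (SD, n = 6) and the value with neferine -2.07 ± 1.51 (SD, n = 6). It ran from -2.99 to 0.09, from -3.24 to 0.14 and from -3.66 to 0.01 in the 3 groups, so the ranges overlapped widely and the group means lay within 1 SD of each other. The AngII value minus the Control value was -0.36, but -1.0 with a pseudocount of 0.1 and between -0.78 and -0.01 without 1 library. Neferine minus Control was -0.77, but -1.43 with that pseudocount and between -1.19 and -0.42 without 1 library. Neferine minus AngII was -0.41, and between -0.82 and -0.05 without 1 library. No test was made of this score.

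The members did not vary together as a block over the libraries. Pearson r of log2(signal + 1) over 17 libraries lay between -0.40 and 0.37 in the 10 pairs, with a median of -0.14, and 7 pairs were negative. Spearman rho had a median of 0.03 with 5 negative pairs. The highest r was that of the related receptors Tek and Tie1, at 0.37 (permutation p = 0.155), with rho = 0.21 (permutation p = 0.422). The highest rho was that of Kdr and Tie1, at 0.37 (permutation p = 0.148). The lowest p was for Cdh5 and Tek, with rho = -0.49 (permutation p = 0.0475) and r = -0.40 (permutation p = 0.142), and after adjustment over the 10 pairs these were 0.475 and 0.517. All of these p are two-sided. Both values of a pair come from the same library and share its depth and scaling.

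Several of these correlations changed when a few libraries were left out. For Cdh5 and Kdr r was -0.08 (permutation p = 0.738) and rho 0.36 (permutation p = 0.155), and r was 0.86 without the 2 libraries farthest from the median of Cdh5, AngII replicate 2 and neferine replicate 2. Omitting neferine replicate 1 and AngII replicates 2 and 6 gave an r of 0.39. For Kdr and Tie1 r was 0.26, and 0.57 without the 2 libraries farthest from the median of Kdr. For Tek and Tie1 r was 0.18 without the 2 libraries farthest from the median of Tek. It was 0.06 without neferine replicate 1 and AngII replicates 2 and 6. It was 0.52 with the group means removed, 0.51 within Control and AngII and 0.69 with neferine. The 0.52 and 0.51 include AngII replicate 6, at 8.14 for Tek and 19.9 for Tie1. Within the 11 Control and AngII libraries the 10 coefficients lay between -0.47 and 0.51 and within the 6 neferine libraries between -0.75 and 0.69, with medians of -0.16 and 0.01. Nos3 had r of -0.66 with Tie1 and -0.75 with Tek in the neferine libraries, and 0.11 and -0.07 in the others. These are 2 of 10 pairs over only 6 neferine libraries, and the difference from the others was not tested.

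**Figure D4:**
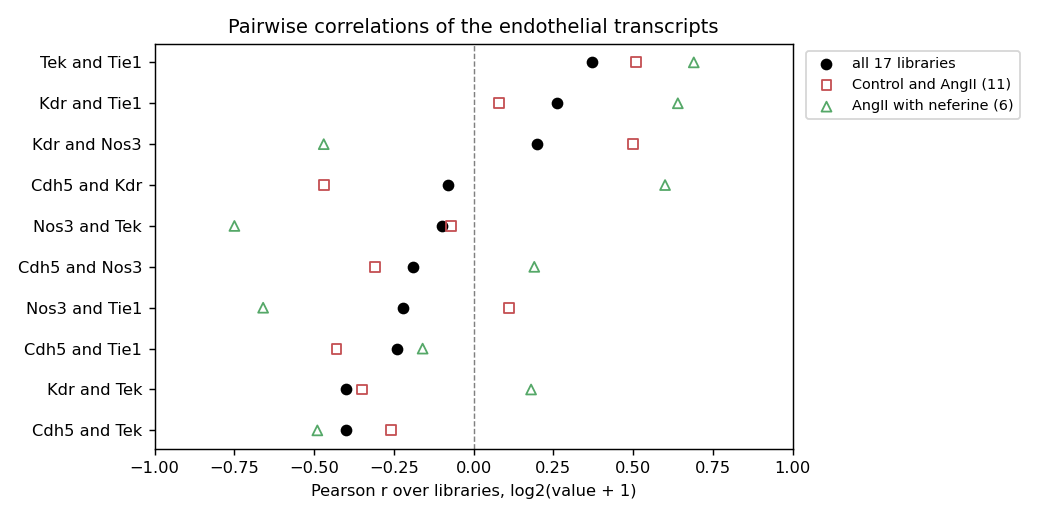
Pearson r over libraries of log2(signal + 1) (horizontal axis) for each pair of endothelial transcripts (vertical axis). Filled circles are all 17 libraries, open squares the 11 Control and AngII libraries and open triangles the 6 neferine libraries. The circles lie between -0.40 and 0.37, and in 5 pairs the square and the triangle lie on opposite sides of 0.

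The transcripts with the pattern most like Nos3, among the 29978 other transcripts tested, were ENSMUST00000030269 and ENSMUST00000078050, both with r = 0.81 over the 17 libraries. Those most like the mean of the 5 members, each scaled to unit variance, were ENSMUST00000238930 and ENSMUST00000161628, with r = 0.81 and 0.80. These are the highest of many coefficients, and the other members had highest r from 0.83 for Cdh5 to 0.91 for Kdr.

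The opposite end of that ranking showed a pattern in the Nos3 signals themselves. It was looked at after the values were seen. The 2 transcripts with the lowest r to Nos3 were ENSMUST00000109214, at -0.88, and MERGE.36929.4, at -0.86. The latter identifier is not an Ensembl one, the files give it no gene, and its origin is not stated. Only MERGE.36929.4 was followed further. It was chosen of the 2 for its kind of identifier, although ENSMUST00000109214 had the lower r. MERGE.36929.4 lay between 0.875 and 2.15 in 5 of the 6 libraries with a Nos3 signal of at least 6 and was listed at 0 in the other, neferine replicate 3. In the 8 libraries with Nos3 under 1 it lay between 4.75 and 14.4. AngII replicate 1 was low in both, at 1.59 for Nos3 and 1.57 for MERGE.36929.4. The coefficient was -0.86 within the Control and AngII libraries (n = 11) and -0.95 within the neferine libraries (n = 6). No p is given because the transcript was picked as an extreme. It was picked over these same libraries, so the 2 coefficients are no independent check.

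Added together, the 2 signals were more even than either. The Control sum was 9.11 ± 1.47 (SD, n = 5), the AngII sum 8.23 ± 2.91 (SD, n = 6) and the sum with neferine 8.52 ± 3.23 (SD, n = 6). Over all 17 libraries the coefficient of variation was 29.9% for the sum, 114% for Nos3 and 76.3% for MERGE.36929.4. The pair was picked for opposite patterns. That choice favours an even sum where the 2 signals are of similar size, so the evenness is no independent result. The other members had transcripts of lowest r from -0.94 for Kdr to -0.82 for Cdh5, so a coefficient of this size was not particular to Nos3. Whether MERGE.36929.4 and Nos3 share a locus was not tested.

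**Figure D5:**
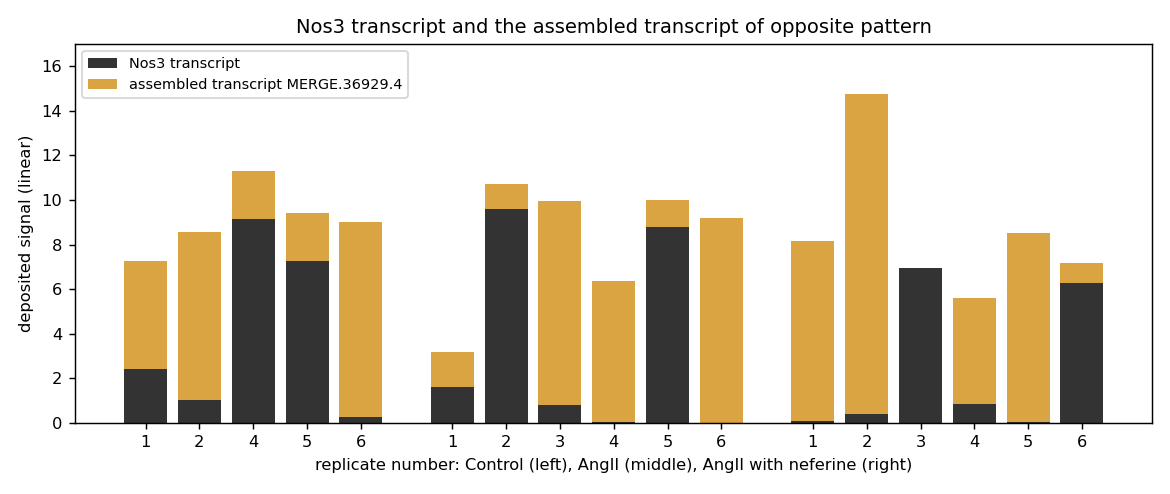
Deposited signal (vertical axis, linear) of the Nos3 transcript (dark) and of the transcript MERGE.36929.4 (light), stacked, in each library. Replicate numbers are on the horizontal axis, with the groups from left to right. The stacked height runs from 3.16 in AngII replicate 1 to 14.8 in neferine replicate 2, and in each group the dark part is large in some libraries and nearly missing in others.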

How the data were processed

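RNA was measured in 17 abdominal aorta samples. Per the labels' protocols, total RNA was depleted of ribosomal RNA before library construction. The authors deposited 1 linear signal per transcript and library, never negative, whose unit the file headers do not name. The submitters' processing notes name limma. For the aligner, assembler, quantifier, build and annotation, nothing is stated by the labels or headers. The sample titles gave the groups and the replicate numbers.

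The 43752 transcripts of the Control and AngII files and the 41642 of the neferine files were joined on 39614 shared identifiers. Log2(signal + 1) was fitted with limma 3.58.1 in R 4.3.3 (trended, robust moderation, 1 term per group, all 17 libraries) over the 29983 transcripts with a signal of at least 1 in at least 5 libraries, with Benjamini-Hochberg adjustment over all of them. Count tests were not used because the files hold no counts, and depth is unknown. Single values were also tested by exact permutation of libraries, and correlations by permutation with 100000 resamples (SciPy 1.17.1). The fit was tested on simulated data.

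The members, lists and alternatives were chosen with earlier results of these data known. The other planned gene lists and marker lists need gene names, as do the planned promoter motifs a sequence, and were not analysed here. All members were to be named, with the 2 transcripts most like Nos3 and the 2 most like the members' mean. Alternatives covered the pseudocount, filter, scaling, groups fitted, replicate block, library weights, moderation and libraries left out.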

Additional observations from a re-analysis of the deposited data

Results flagged for a closer look

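Among 27 groups of 5 or 6 values examined, 6 held a value far from the rest. They covered the 5 transcripts, Nos3 relative to the others, and 3 measures of whole libraries, in each group. The chance level of about 5% of groups does not allow for measures that share libraries. All but the value of Control replicate 5 came from AngII replicates 2 and 6, so no excess over chance was inferred. The Kdr signal of AngII replicate 2 was 22.5, where the next AngII library had 5.88. The Tek signal of AngII replicate 6 was 8.14, where the next had 2.47. The other 4 were measures of whole libraries. The share of signal in the 10 most abundant transcripts was 31.0% in AngII replicate 2 and 21.8% in Control replicate 5. In AngII replicate 6, 16.4% of transcripts were listed at 0, and the median rank correlation with the rest (Spearman rho) was 0.455.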

How the results depend on the processing

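No member passed in any of the 26 alternative fits of the 3 comparisons, with a lowest adjusted limma p of 0.355, for Tek between neferine and Control without AngII replicates 2 and 6 and neferine replicate 1. Of 390 values from these fits 6 had an unadjusted limma p under 0.05, for Kdr, Tek and Cdh5. All 6 were in comparisons with neferine, in fits with libraries left out. The fits repeat the same comparisons on shared libraries, so 6 of 390 is no rate. In the fit reported, 5.22% of all transcripts had such a p between neferine and AngII, and 8.74% between neferine and Control. Over all transcripts the fits called 0 to 12 between AngII and Control, 0 to 13 between neferine and AngII, and 0 to 110 between neferine and Control (0, 0 and 11 in the fit reported).

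With the fits, the exact tests gave 405 values, of which 14 had the opposite direction, none of them called. The exact tests kept the same difference and could not reverse it. Nor could fits that changed only the filter, the groups fitted, the moderation or a library of the group not compared. The 14 of 405 is therefore no measure of stability. Without the 3 libraries just named, the AngII against Control values were 0.07 for Cdh5, -0.31 for Tek and -0.02 for Tie1, and Nos3 between neferine and AngII was 0.05. Tek between AngII and Control was -0.03 with libraries scaled to equal totals and -0.22 with library weights. Leaving out 1 library, AngII against Control ranged from -0.34 to -0.03 for Cdh5, from -0.52 to 0.14 for Kdr, from -0.23 to 0.20 for Tek and from 0.05 to 0.25 for Tie1, and neferine against AngII from -0.63 to 0.11 for Nos3 and from -0.07 to 0.13 for Tie1. The cause was not tested, beyond the library left out.

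The replicate block left 0 members called in each comparison and reversed no member. The labels do not say that equal numbers share a mouse or a day, and 0 of 16 same-numbered pairs had a correlation of deviations over 0.1 (-0.147 to 0.064). Of 17 libraries 1 correlated best with its own number. The unknown depth and the spread of Nos3 limit what could be detected.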
